A study of Mus musculus with 6 samples.

Results

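The transcripts of 9 enzymes of amino group and glutamate metabolism were followed in 6 samples of colon epithelium, 3 from *Zfp90* fl/fl and 3 from Zfp90deltaIEC mice. The 9 genes, among 52550 that were listed, are *Gpt*, *Gpt2*, *Got1*, *Got2*, *Glul*, *Glud1*, *Oat*, *Asns* and *Psat1*. They were picked by name for their place in this chemistry with earlier results of these data known, and *Gpt* was picked because its level differed between the genotypes in these same samples. The genotype differences of the 9 genes are therefore given as a description, without a test of their own.

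All samples came from C57BL/6 males, 6 to 8 weeks old before treatment, that had then gone through AOM-DSS treatment, a model in which a carcinogen (azoxymethane, AOM) and repeated colitis from dextran sulfate sodium (DSS) lead to colon tumours. The labels give AOM at 10 mg/kg, then, 5 days later, the first of 3 cycles of 2% DSS for 7 days and plain water for 14 days, with an end at day 80, whereas the methods of the study give a higher DSS concentration. In the Zfp90deltaIEC mice, Cre driven by the villin promoter removed exon 4 and the 3′ UTR of *Zfp90*, a zinc finger gene, from intestinal epithelial cells, and the *Zfp90* fl/fl mice were littermates with the floxed alleles alone. Mice were housed by genotype after weaning, so cage and genotype cannot be told apart. For 2 of the Zfp90deltaIEC libraries (replicates 2 and 3) the genotype field names another gene number, Zfp91deltaIEC and Zfp92deltaIEC, and both were kept in the group that their titles give. The labels number the samples of a group as replicates and do not say that each is a separate mouse, so the tests measure the spread between these samples, which may be technical in part.

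Transaminases move an amino group between an amino acid and a keto acid, and most of them use glutamate and 2-oxoglutarate as one of the pairs. Glutamate dehydrogenase and glutamine synthetase connect this exchange to free ammonia, and ornithine aminotransferase, phosphoserine aminotransferase and asparagine synthetase lead from it to proline and arginine, to serine and to asparagine. The gut epithelium is known for a high turnover of glutamine and glutamate, and alanine is one of the forms in which it releases nitrogen.

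The values are FPKM (fragments per kilobase of transcript, scaled to the mapped fragments of the library), so levels can be compared between genes per length. The low values of genes with a single transcript rise in steps that put the depth at an estimated 25.6 to 28.5 M fragments. The depth taken for each sample was the one that put the largest share of these values within 0.1 of a whole fragment. That share was 54.5% to 60.2%, and as the fitted optimum it is not a separate check of the depth. *Zfp90* itself measured 0.630, 0.490 and 0.569 FPKM in the *Zfp90* fl/fl samples and 0.0846, 0.195 and 0.166 FPKM in the Zfp90deltaIEC samples. The groups followed the labels without overlap, but these values lie below 1 FPKM and rest on an estimated 6 to 42 fragments per sample. The 2 libraries with the other gene number in the genotype field were among the low ones. Summed markers of colon epithelium (*Epcam*, *Cdh1*, *Krt8*, *Krt20*, *Vil1*) ranged from 3963 to 4508 FPKM in *Zfp90* fl/fl and from 3934 to 4375 FPKM in Zfp90deltaIEC samples. Most of each sum was *Krt8*, with 2703 to 3071 FPKM in *Zfp90* fl/fl and 2635 to 2922 FPKM in Zfp90deltaIEC samples. The mean was higher in Zfp90deltaIEC for 2 of the 5 markers, *Krt20* and *Vil1*, and the groups overlapped for all 5. All 9 enzyme genes reached at least 1 FPKM in at least 3 samples and were among the 11564 genes tested.

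The levels of the 9 genes covered a wide range. *Glul*, glutamine synthetase, was the most abundant with a mean of 187.6 FPKM over the 6 samples. It was followed by *Oat*, ornithine aminotransferase of the mitochondrion, with 87.9 FPKM, and by *Glud1*, glutamate dehydrogenase, with 47.0 FPKM. Then came the alanine and aspartate transaminases, *Gpt* with 26.9 FPKM, *Got2* with 21.2 FPKM and *Got1* with 17.0 FPKM. *Asns*, asparagine synthetase, had 8.22 FPKM, *Gpt2*, the mitochondrial alanine transaminase, 5.30 FPKM and *Psat1*, phosphoserine aminotransferase, 1.37 FPKM.

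The order was read from the means of these same samples and is therefore given without a test. For 7 of the 8 pairs of neighbours the first gene was higher in 6 of 6 samples. *Gpt* and *Got2* were the exception, with *Gpt* higher in 4 of 6 samples and a mean difference of 0.27 ± 0.352 on the log2(FPKM + 1) scale (SD, n = 6), smaller than its spread. *Gpt* lay below *Got2* in *Zfp90* fl/fl replicates 1 and 2 and above it in the other *Zfp90* fl/fl sample and in each Zfp90deltaIEC sample.

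**Figure D1:**
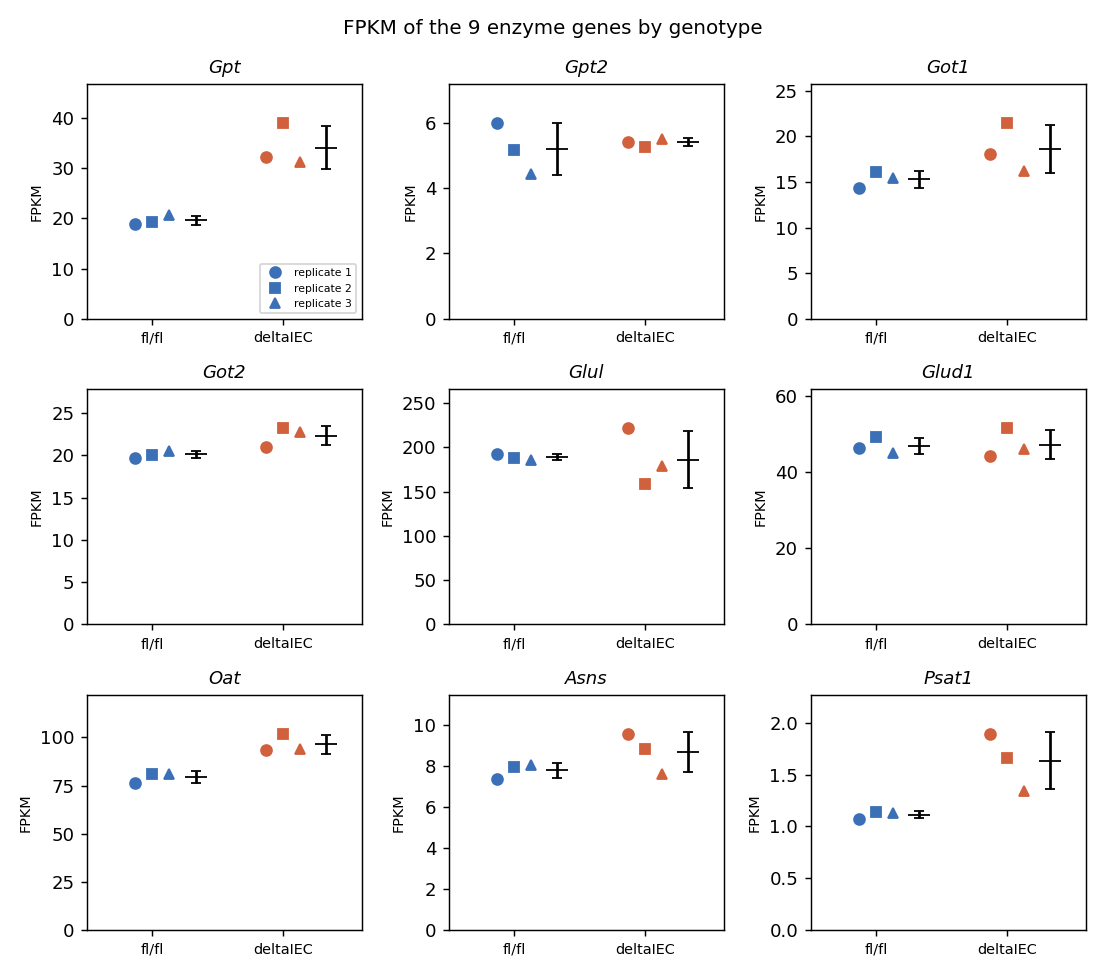
FPKM (linear axes from 0) of the 9 enzyme genes in each *Zfp90* fl/fl sample (blue) and each Zfp90deltaIEC sample (orange), with replicate number by symbol and the mean ± SD of 3 samples beside them. The groups lie apart for *Gpt*, *Got1*, *Got2*, *Oat* and *Psat1* and overlap for *Gpt2*, *Glul*, *Glud1* and *Asns*.

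*Gpt* (ENSMUSG00000022546, chr15:76695716-76699686 in GRCm38, plus strand) encodes the cytosolic alanine transaminase, which makes alanine from pyruvate and glutamate and back. It measured 19.0, 19.2 and 20.6 FPKM in the *Zfp90* fl/fl samples and 32.2, 39.0 and 31.2 FPKM in the Zfp90deltaIEC samples. The lowest Zfp90deltaIEC value was well above the highest *Zfp90* fl/fl value, and replicate 2 was the highest of all. The group means were 19.6 ± 0.892 and 34.1 ± 4.28 FPKM (SD, n = 3 each), a 1.74-fold higher mean in Zfp90deltaIEC. On the log2(FPKM + 1) scale, which understates changes of low genes, the difference was 0.76 (SE 0.0926, 95% interval 0.54 to 0.98). It stood at place 50 from the top of the 11564 genes tested by this difference, and at place 31 among the 6662 genes that averaged 5 FPKM or more. The values rest on an estimated 871 to 1994 fragments per sample.

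The value that chose *Gpt* was its adjusted p of 0.0434 (limma, Benjamini-Hochberg). Across all genes 23 of 11564 passed an adjusted p under 0.05, 0.199% of those tested, with 8 higher (0.0692%) and 15 lower in Zfp90deltaIEC. *Gpt* was the 1 gene of the 9 among them, which its choice fixed. At the edge of the threshold, *Mki67* was the last gene inside with an adjusted p of 0.0478, and *Rab11fip4* the first outside with 0.0516. The difference of *Gpt* kept its direction under all 12 alternative settings, between 0.66 and 0.82, and passed the threshold under 3 of them. Without any 1 of *Zfp90* fl/fl replicates 1, 2 and 3 or Zfp90deltaIEC replicates 1 and 3 it no longer passed, with adjusted p values that are given with the alternatives.

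*Gpt2* (ENSMUSG00000031700, chr8:85492576-85527560, plus strand) encodes the alanine transaminase of the mitochondrion. It measured 6.00, 5.15 and 4.42 FPKM in *Zfp90* fl/fl and 5.41, 5.27 and 5.52 FPKM in Zfp90deltaIEC samples. The Zfp90deltaIEC samples lay inside the range of the *Zfp90* fl/fl samples, with a difference of 0.06 (SE 0.0962, 95% interval -0.17 to 0.28) on the log2(FPKM + 1) scale. *Gpt* thus made up 76.0%, 78.9% and 82.3% of the summed FPKM of the alanine transaminases in *Zfp90* fl/fl samples, and 85.6%, 88.1% and 85.0% in Zfp90deltaIEC samples. The mean share was 7.15 percentage points higher in Zfp90deltaIEC (86.2% ± 1.66 against 79.1% ± 3.18, SD, n = 3 each), and the sum was 39.5 ± 4.17 against 24.8 ± 0.369 FPKM.

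The aspartate transaminases exchange amino groups between glutamate and oxaloacetate and form part of the malate-aspartate shuttle, which carries reducing equivalents into the mitochondrion. *Got1* (ENSMUSG00000025190, chr19:43499752-43524605, minus strand), the cytosolic form, measured 14.3, 16.1 and 15.4 FPKM in *Zfp90* fl/fl and 18.1, 21.5 and 16.2 FPKM in Zfp90deltaIEC samples. The groups did not overlap, but Zfp90deltaIEC replicate 3 lay just above the highest *Zfp90* fl/fl sample. The means were 15.3 ± 0.908 and 18.6 ± 2.66 FPKM, with a log2(FPKM + 1) difference of 0.26 (SE 0.104, 95% interval 0.016 to 0.51), which was 0.16 without Zfp90deltaIEC replicate 2.

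*Got2* (ENSMUSG00000031672, chr8:95864134-95888547, minus strand), the mitochondrial form, measured 19.8, 20.1 and 20.5 FPKM in *Zfp90* fl/fl and 21.03, 23.21 and 22.81 FPKM in Zfp90deltaIEC samples. These groups did not overlap either, although the log2(FPKM + 1) difference was small at 0.14 (SE 0.0583, 95% interval 0.0055 to 0.28). *Got1* made up 43.2% ± 1.29 of the summed aspartate transaminase FPKM in *Zfp90* fl/fl and 45.3% ± 3.35 in Zfp90deltaIEC samples (SD, n = 3 each), a difference of 2.17 percentage points that is within the spread of the latter group and ran from 0.787 without Zfp90deltaIEC replicate 2 to 4.03 without Zfp90deltaIEC replicate 3. The sum of the 4 alanine and aspartate transaminases was 59.1, 60.6 and 61.0 FPKM in *Zfp90* fl/fl and 76.7, 89.0 and 75.7 FPKM in Zfp90deltaIEC samples, and most of the gap was that of *Gpt*.

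*Glul* (ENSMUSG00000026473, chr1:153899944-153909723, plus strand) joins ammonia to glutamate to form glutamine. It measured 192.4, 188.1 and 186.1 FPKM in *Zfp90* fl/fl and 221.7, 158.4 and 179.0 FPKM in Zfp90deltaIEC samples. The Zfp90deltaIEC samples fell on either side of the narrow *Zfp90* fl/fl range, with a coefficient of variation of 17.3% against 1.72%. The log2(FPKM + 1) difference was -0.03 (SE 0.117, 95% interval -0.31 to 0.24), and its sign changed when Zfp90deltaIEC replicate 2 was left out, to 0.08. The annotation places the microRNA gene *Mir8114* inside the 5′ end of *Glul* on the same strand, with 108.3 to 146.0 FPKM, and how fragments were divided between them is not given in the sources used here.

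*Glud1* (ENSMUSG00000021794, chr14:34310727-34345265, plus strand) converts glutamate to 2-oxoglutarate and ammonia in the mitochondrion. It measured 46.3, 49.2 and 44.9 FPKM in *Zfp90* fl/fl and 44.2, 51.4 and 45.9 FPKM in Zfp90deltaIEC samples. The groups overlapped almost entirely, with a difference of 0.01 on the log2(FPKM + 1) scale (SE 0.0734, 95% interval -0.16 to 0.18), which turned to -0.05 without Zfp90deltaIEC replicate 2 and to -0.02 without *Zfp90* fl/fl replicate 3. For *Gpt2*, *Glul* and *Glud1* the intervals reach no further than 0.31 in either direction.

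*Oat* (ENSMUSG00000030934, chr7:132557478-132576398, minus strand) exchanges the amino group of ornithine with 2-oxoglutarate on the way to and from proline. It measured 76.1, 81.2 and 80.9 FPKM in *Zfp90* fl/fl and 93.3, 101.8 and 93.8 FPKM in Zfp90deltaIEC samples. Each Zfp90deltaIEC sample was above each *Zfp90* fl/fl sample, and replicate 2 was again the highest. The means were 79.4 ± 2.89 and 96.3 ± 4.80 FPKM, with a log2(FPKM + 1) difference of 0.28 (SE 0.0601, 95% interval 0.13 to 0.42). *Fgfr2*, which the annotation lets overlap *Oat* on the same strand, had 2.91 to 3.86 FPKM.

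*Psat1* (ENSMUSG00000024640, chr19:15904678-15947337, minus strand) takes the amino group from glutamate in the second step of serine synthesis. It measured 1.07, 1.14 and 1.13 FPKM in *Zfp90* fl/fl and 1.90, 1.66 and 1.35 FPKM in Zfp90deltaIEC samples. The groups did not overlap, and the Zfp90deltaIEC samples were spread over a range wider than their distance from the *Zfp90* fl/fl samples. The fold of the means was 1.47, and the log2(FPKM + 1) difference of 0.31 (SE 0.0935, 95% interval 0.09 to 0.53) rests on an estimated 72 to 135 fragments per sample.

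*Asns* (ENSMUSG00000029752, chr6:7675169-7693254, minus strand) uses the amide group of glutamine to turn aspartate into asparagine. It measured 7.37, 7.93 and 8.04 FPKM in *Zfp90* fl/fl and 9.55, 8.83 and 7.60 FPKM in Zfp90deltaIEC samples. Zfp90deltaIEC replicate 3 lay inside the *Zfp90* fl/fl range, and the difference was 0.13 (SE 0.0861, 95% interval -0.07 to 0.34) on the log2(FPKM + 1) scale. It was 0.067 without Zfp90deltaIEC replicate 1 and 0.21 without replicate 3.

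Seen together, 5 of the 9 genes had groups that did not overlap, all with the higher values in Zfp90deltaIEC samples. Over all genes tested, 8.73% did not overlap in that direction. The difference was above 0 for 8 of the 9 genes, against 42.8% of all genes tested, and its median was 0.14 over the 9 genes and -0.02 over all genes tested. As *Gpt* was chosen on this contrast and the others with its results known, nothing is read from these shares.

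The samples of the Zfp90deltaIEC group differed in which enzymes were highest. Replicate 2 had the highest *Gpt*, *Got1*, *Got2*, *Glud1* and *Oat* of the group. Replicate 1 had the highest *Glul*, *Asns* and *Psat1*. The coefficient of variation was larger in Zfp90deltaIEC than in *Zfp90* fl/fl samples for 8 of the 9 genes, with *Gpt2* as the exception, and for 59.0% of all genes tested.

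**Figure D2:**
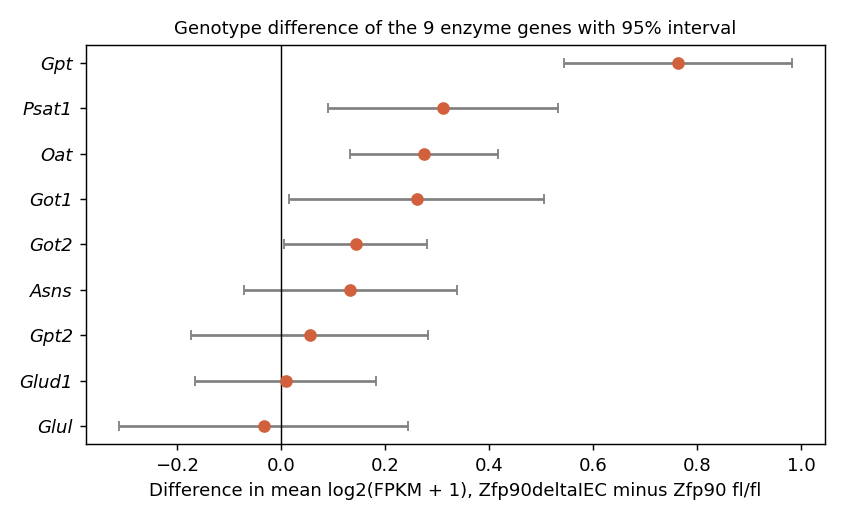
Difference in mean log2(FPKM + 1), Zfp90deltaIEC minus *Zfp90* fl/fl, of the 9 enzyme genes (points) with the 95% interval from the fit across all genes (bars, n = 3 each). *Gpt* stands at 0.76, *Psat1*, *Oat* and *Got1* between 0.26 and 0.31, and the intervals of *Asns*, *Gpt2*, *Glud1* and *Glul* include 0.

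The genes whose level ran most like that of *Gpt* were ranked by Pearson's r of log2(FPKM + 1) over the 6 samples, among the 6661 other genes that averaged 5 FPKM or more. These values contain the genotype difference and are a description. The most alike were *Gm11223* (r = 0.989), *Rundc3b* (r = 0.989), *Etfb*, a subunit of the electron transfer flavoprotein (r = 0.989), *Rps19bp1* (r = 0.987) and *Racgap1*, a cytokinesis gene (r = 0.986). *Oat* came at place 7 with r = 0.984. The other enzymes ranked lower, *Got2* at place 181 (r = 0.900), *Got1* at place 280 (r = 0.865) and *Asns* at place 896 (r = 0.639). *Glud1* (r = 0.229), *Gpt2* (r = 0.127) and *Glul* (r = -0.289) hardly followed *Gpt*. At the other end stood *Nox1*, the NADPH oxidase of the colon epithelium, with r = -0.997, *Rps7* with r = -0.996 and *Cd177* with r = -0.995. *Cd177*, known as a neutrophil surface gene, had 97.9 ± 9.46 FPKM in *Zfp90* fl/fl and 40.1 ± 10.1 FPKM in Zfp90deltaIEC samples. The 6 leukocyte markers given below summed to at most 6.99 FPKM in any sample, and which cells expressed *Cd177* was not tested.

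The genes around *Gpt* were examined in a window of 60 kb on each side, chosen after values were seen. Of 10 protein-coding neighbours, 8 could be tested and 0 passed an adjusted p under 0.05 in limma, with 0 at an unadjusted p under 0.05. Over all genes tested these shares were 0.199% and 14.6%, and whether the neighbours differ from other genes was not tested. Their differences ran from -0.12 to 0.11 on the log2(FPKM + 1) scale, with 95% intervals between -0.31 and 0.32. *Ppp1r16a*, a phosphatase regulatory subunit that ends 0.797 kb before *Gpt*, measured 6.71 ± 0.202 FPKM in *Zfp90* fl/fl and 6.91 ± 0.503 FPKM in Zfp90deltaIEC samples (SD, n = 3 each). *Mfsd3*, which begins 1.78 kb after *Gpt*, was below the minimum for a test.

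**Figure D3:**
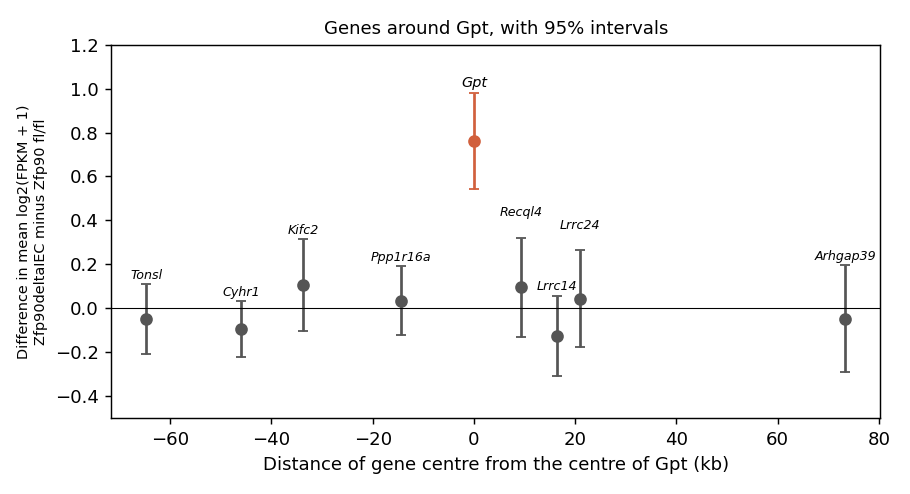
Difference in mean log2(FPKM + 1), Zfp90deltaIEC minus *Zfp90* fl/fl, with 95% intervals (n = 3 each), of *Gpt* (orange) and its 8 tested protein-coding neighbours (grey) against the distance of gene centres from the centre of *Gpt*. The neighbours lie between -0.12 and 0.11 and *Gpt* at 0.76.

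The other genes of these pathways were taken from 8 lists with 88 genes, of which 69 could be tested. No gene of the lists passed (0 of 69 higher and 0 lower in limma), against 0.199% of all genes tested. At that share few or no calls would fall in lists of this size, so nothing is read from the counts of 0, here or for single lists below. At an unadjusted p under 0.05 there were 11 genes, against 14.6% of all genes tested. The smallest adjusted p was 0.0984. Groups lay apart with the higher values in Zfp90deltaIEC samples for 11 of 69 genes, against 8.73% of all genes tested, and the median difference of the 69 genes was 0.06 on the log2(FPKM + 1) scale.

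Serine synthesis and one-carbon metabolism held the smallest adjusted p, with 0 of 9 tested genes passing and a median of 0.09. *Aldh1l1*, the cytosolic enzyme that oxidizes formyl-tetrahydrofolate, measured 32.9, 32.9 and 36.3 FPKM in *Zfp90* fl/fl and 21.96, 20.51 and 27.13 FPKM in Zfp90deltaIEC samples. It was lower without overlap, at -0.54 (SE 0.106, adjusted p = 0.0984). *Amt*, the aminomethyltransferase of the glycine cleavage system, measured 4.16 ± 0.304 and 6.37 ± 0.968 FPKM, a difference of 0.51 (SE 0.106, adjusted p = 0.115). *Phgdh*, the enzyme one step before *Psat1* and named after its values were seen, measured 4.04 ± 0.313 and 5.82 ± 1.08 FPKM, a difference of 0.43 (SE 0.117, adjusted p = 0.177). *Psph*, the last enzyme of the serine route and also named after its values were seen, had means of 1.01 and 1.02 FPKM.

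In the list of proline, ornithine and the urea cycle, which holds the reactions next to *Oat*, 0 of 13 tested genes passed and the median was 0.08. Groups lay apart with the higher values in Zfp90deltaIEC samples for 5 of the 13 genes and with the lower values for 1, against 8.73% and 12.6% of all genes tested. *Cps1*, the mitochondrial carbamoyl phosphate synthetase, measured 3.61, 3.36 and 4.03 FPKM in *Zfp90* fl/fl and 4.50, 8.57 and 7.05 FPKM in Zfp90deltaIEC samples, a difference of 0.69 (SE 0.192, adjusted p = 0.183) that was 0.24 without both libraries whose genotype field names another gene. *Otc*, which joins carbamoyl phosphate to ornithine, measured 5.38, 5.83 and 5.77 FPKM against 7.67, 10.0 and 7.21 FPKM, a difference of 0.47 (SE 0.114, adjusted p = 0.134). Both genes had their highest value in Zfp90deltaIEC replicate 2, the sample in which *Gpt* and *Oat* were also highest.

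In the list of other transaminases 5 of 11 genes could be tested, 0 passed and the median was -0.02. The list also holds *Gcat* and *Etnppl*, which are not transaminases, and its median is the value of *Gcat*. *Kyat1*, which transaminates kynurenine and glutamine, measured 7.28 ± 0.391 FPKM in *Zfp90* fl/fl and 9.20 ± 0.655 FPKM in Zfp90deltaIEC samples without overlap (difference 0.30, SE 0.0705, adjusted p = 0.134). *Tat*, the tyrosine aminotransferase, measured 14.7 ± 3.29 and 10.8 ± 1.56 FPKM with overlap (difference -0.40, SE 0.171, adjusted p = 0.352). The tested genes of this list lay on both sides of 0.

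The list of glutamine breakdown and glutathione metabolism had 5 tested genes, 0 passing and a median of -0.03. *Gclm*, the modifier subunit of glutamate-cysteine ligase, stood at 2.98 FPKM in Zfp90deltaIEC replicate 3 and between 10.1 and 13.1 FPKM in the other 5 samples, so its difference of -0.47 (SE 0.435, adjusted p = 0.671) came from 1 library and was 0.09 without it.

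The other 4 lists had 0 genes passing as well. The glutamine amidotransferases, enzymes that draw nitrogen from glutamine, had a median of 0.02 over 8 tested genes, with *Gfpt1*, the entry to hexosamine synthesis, at 0.12 (adjusted p = 0.556) and *Nadsyn1*, NAD synthetase, at -0.11 (adjusted p = 0.551). Genes of aspartate and asparagine had a median of 0.09 over 5, with *Adss* at -0.14 (adjusted p = 0.704) and *Adsl* at 0.09 (adjusted p = 0.712), both of purine synthesis. The malate-aspartate shuttle and pyruvate handling had a median of 0.09 over 10, with the malic enzymes *Me1* at -0.29 (adjusted p = 0.556) and *Me2* at 0.23 (adjusted p = 0.392). Targets and partners of ATF4, the transcription factor of the amino acid response, had a median of 0.06 over 14, with *Ddit3* at 0.19 (adjusted p = 0.353) and *Cebpg* at -0.15 (adjusted p = 0.564).

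**Figure D4:**
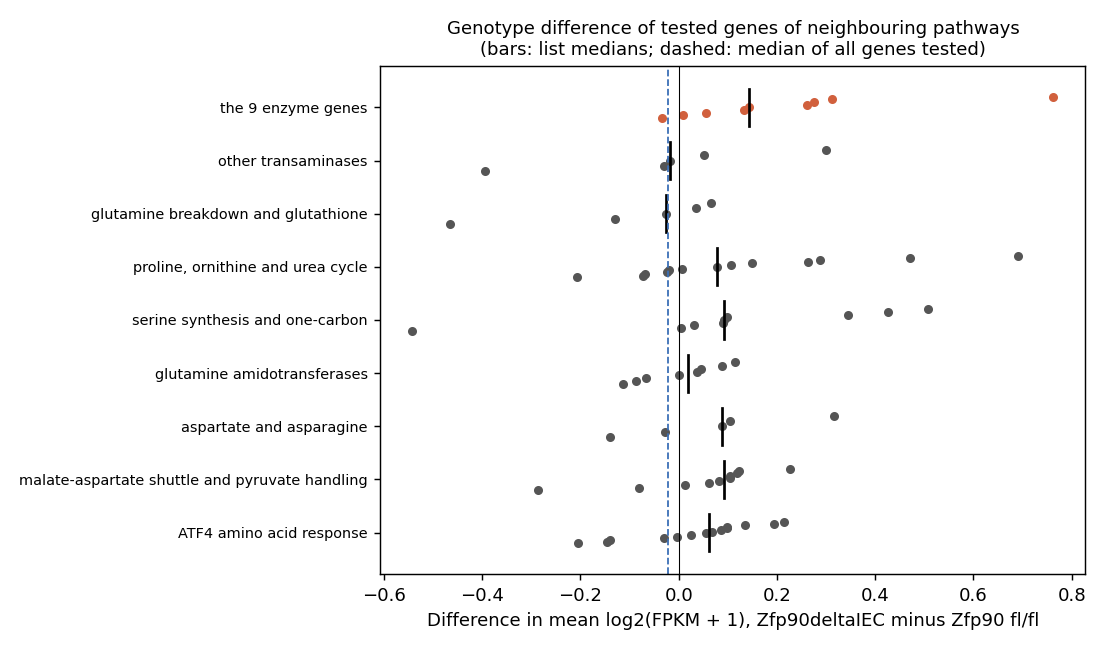
Difference in mean log2(FPKM + 1), Zfp90deltaIEC minus *Zfp90* fl/fl, of the 9 enzyme genes (orange) and of the tested genes of each pathway list (grey points), with list medians (black bars) and the median of all genes tested (dashed line). Medians of the pathway lists lie between -0.03 and 0.09, and their single genes from -0.54 (*Aldh1l1*) to 0.69 (*Cps1*). The median of the 9 enzyme genes is 0.14, with *Gpt* at 0.76.

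*Asns* and *Psat1* are known targets of ATF4, and the promoters were therefore searched for the letters of the amino acid response element, TGATGNAA, on both strands of the 250 bases before the RefSeq start (RefSeq, GRCm38.p6). These letters occurred in 1134 of 32851 promoter windows, 3.45%. Of the 9 enzyme genes, 8 (all but *Gpt*) had a window, and *Asns* and *Got1* held a match. The matches are shown 5′ to 3′ on the strand of the gene with the 8 matching letters in capitals, for *Asns* at chr6:7693214-7693243 and for *Got1*, where the match is on the opposite strand, at chr19:43524689-43524718, both on the minus strand.
Asns: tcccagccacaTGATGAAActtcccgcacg
Got1: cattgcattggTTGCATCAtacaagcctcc
The match of *Asns* begins 23 bases before its RefSeq start, which is 22 bases after the start in the annotation used for the gene coordinates, and that of *Got1* 102 bases before. The groups overlapped for *Asns* and did not for *Got1*, and a match of letters is a description and not a site of binding.

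Marker lists of the epithelium are given beside *Gpt* and *Oat*. Summed markers of differentiated colonocytes (*Car1*, *Car4*, *Slc26a3*, *Aqp8*, *Guca2a*) ranged from 5075 to 6815 FPKM in *Zfp90* fl/fl and from 7767 to 11783 FPKM in Zfp90deltaIEC samples, with the highest sum in replicate 2. Most of each sum was *Car1*, with 4033 to 5628 FPKM in *Zfp90* fl/fl and 6349 to 10059 FPKM in Zfp90deltaIEC samples. Within Zfp90deltaIEC, *Car1* and *Guca2a* were highest in replicate 2, and *Car4*, *Slc26a3* and *Aqp8* in replicate 3. The mean was higher in Zfp90deltaIEC for 5 of 5 markers and the groups lay apart for 4 of 5, with 0 called. Over all genes tested, 42.8% had a difference above 0 and 8.73% lay apart in that direction. Crypt and cycling markers (*Lgr5*, *Ascl2*, *Axin2*, *Mki67*, *Top2a*) summed to 42.5 to 44.7 FPKM and to 53.1 to 55.9 FPKM, with *Mki67*, the proliferation marker, called at 0.41 (SE 0.0512, adjusted p = 0.0478). This sum was mostly *Mki67* and *Top2a*, the 2 of 5 markers whose groups lay apart with higher values. *Axin2*, a Wnt target, had means of 4.45 and 3.43 FPKM, and the stem cell markers *Lgr5* (0.799 and 0.806 FPKM) and *Ascl2* (0.938 and 0.977 FPKM) overlapped.

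Markers of other cell types were low. The 6 leukocyte markers (*Ptprc*, *Cd3e*, *Cd79a*, *Itgam*, *Adgre1*, *Lyz2*) summed to 5.58 to 6.99 FPKM in *Zfp90* fl/fl and to 2.29 to 2.92 FPKM in Zfp90deltaIEC samples. All 6 were lower without overlap, with 1 tested and 0 called. Over all genes tested 12.6% lay apart in that direction, but only *Lyz2* of these markers reached the minimum for a test, so that share does not cover the others. Markers of stroma and vessels summed to 0.346 to 0.511 and 0.520 to 0.718 FPKM, with *Col1a1* and *Des* near 0. Most of this sum was *Pecam1*, a vessel marker, with means of 0.257 and 0.458 FPKM and groups that lay apart. *Col3a1* had means of 0.112 and 0.0863 FPKM with overlap, and the mean was higher in Zfp90deltaIEC for 2 of the 4 markers. Hepatocyte markers, included because *Gpt* is abundant in liver, summed to 14.8 to 18.5 and 11.6 to 17.6 FPKM, nearly all of it *Ttr*, while *Alb* was at most 0.678 FPKM and *Fgb* and *Serpina1a* were at or near 0. The part of these markers in the differences of the enzymes was not tested. In bulk samples, a larger share of cells of a type and more RNA per cell cannot be told apart.

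**Figure D5:**
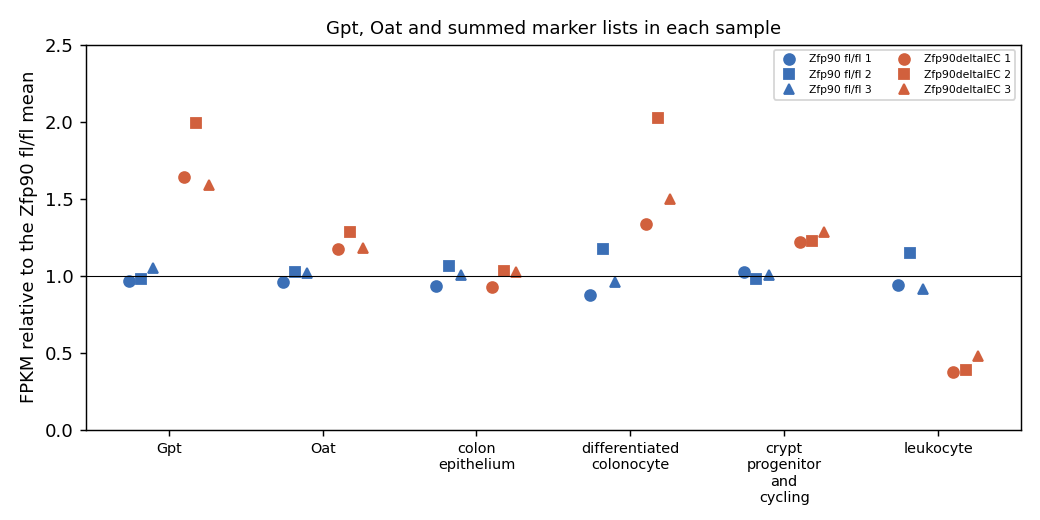
FPKM of *Gpt*, *Oat* and 4 summed marker lists in each sample, relative to the mean of the 3 *Zfp90* fl/fl samples (linear axis from 0; blue *Zfp90* fl/fl, orange Zfp90deltaIEC, symbols are replicates). The sums of epithelial markers overlap between the genotypes. Those of differentiated colonocyte markers and of crypt progenitor and cycling markers lie higher and that of leukocyte markers lower in Zfp90deltaIEC samples. Single markers can differ from their sum, as *Axin2* had a lower mean in Zfp90deltaIEC and *Car4*, *Lgr5* and *Ascl2* overlapped.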

How the data were processed

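Colon epithelium in 6 samples (3 per genotype) was measured by strand-specific paired-end RNA-seq (150 bases). The authors deposited 1 table of FPKM per sample, and the headers do not name the unit, which follows from the methods and the values. Per the labels, reads were handled with STAR 2.5, Cuffnorm and the mouse build mm9, whereas the methods name TopHat, Cuffdiff and a human build. The gene IDs are those of mouse. Symbols (52403 of 52550 IDs) and coordinates come from a GRCm38 annotation.

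FPKM were transformed to log2(FPKM + 1), and limma (version 3.58.1, R 4.3.3, intensity trend) with Benjamini-Hochberg adjustment at 0.05 was run on the 11564 genes that reached 1 FPKM in 3 or more samples. Intervals are 95%. The test was tried on simulated data. Tables used pandas 2.3.3 and numpy 2.4.6 under Python 3.11.15, and plots matplotlib 3.10.9. Fragment numbers are estimates.

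Members, lists and tests were chosen with earlier results of these data known. In each pathway list the genes named are the 2 with the largest absolute difference among those that averaged 5 FPKM or more, and others are said to be named after their values were seen. Of the genes this rule takes, 1 is not reported here. Alternatives were other pseudocounts, filters and scalings, a replicate block and leaving out libraries.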

Additional observations from a re-analysis of the deposited data

How the results depend on the processing

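Of 108 values of the 9 enzyme genes under alternative settings, 93 kept direction and side of the threshold, 9 (all of *Gpt*) kept direction and no longer passed, and 6 changed sign. *Gpt* passed after quantile normalization, after median ratio scaling and without Zfp90deltaIEC replicate 2 (adjusted p = 0.0463, 0.0411 and 0.0437 in limma). It did not pass with a pseudocount of 0.1 (0.0546), without the filter (0.114), without *Zfp90* fl/fl replicate 1, 2 or 3 (0.136, 0.153 and 0.0885) or without Zfp90deltaIEC replicate 1 or 3 (0.0680 and 0.0587). The cause was not tested.

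The number of genes past the threshold, 23 in the main test, was 13 with a pseudocount of 0.1, 15 without the filter and 10 to 21 with 1 library left out, the lowest without *Zfp90* fl/fl replicate 2. It was 42 without both libraries whose genotype field names another gene, a setting added after seeing the data that leaves 1 Zfp90deltaIEC sample, assumed to vary like the others. Enzyme genes past the threshold were 0 with a pseudocount of 0.1, without the filter, with the replicate block and without both those libraries, and 0 to 1 with 1 library left out. Without both those libraries *Gpt* stood at 0.69 (adjusted p = 0.0738), *Cps1* shrank from 0.69 to 0.24 and *Got2* from 0.14 to 0.061, *Asns* grew from 0.13 to 0.27, and *Glul* turned to 0.23, *Glud1* to -0.080 and *Gclm* to 0.24. With 1 library left out, *Gpt2* ran from -0.036 to 0.15, *Glul* from -0.16 to 0.077, *Glud1* from -0.053 to 0.054 *Got1* from 0.16 to 0.35, *Asns* from 0.067 to 0.21 and *Gclm* from -0.82 to 0.094. Of 192 values of the pathway genes that the naming rule takes, 190 kept direction and side, and 0 pathway genes passed under any alternative. *Psat1* was 0.50 with a pseudocount of 0.1.

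With the replicate block 47 genes passed, and *Gpt* had a difference of 0.76 with an adjusted p of 0.0721. Samples with the same number had deviations from their group means that correlated at 0.194, 0.110 and 0.0782. Samples with different numbers were not compared in this way. Whether samples with the same number share more than the number was therefore not tested, and the main test was run without the block. The depth limits *Psat1* most, the least abundant of the 9 genes.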
